A study of Mus musculus with 19 samples.

Results

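The genes described here are 38 nuclear receptors and coregulators of the mouse liver, chosen by gene symbol from the 51826 gene entries of the expression table. They comprise 32 receptors and 6 coregulators, arranged below in 11 classes by ligand or family, and each symbol matched 1 entry. RNA was sequenced from flash-frozen whole liver of 19 female Balbc mice labelled as 12 weeks old. Of these, 7 were nulliparous, 6 were at lactation day 10 and 6 were at involution day 6, when the mammary gland regresses after nursing ends. No genotype other than the strain and no drug or diet treatment was named for any group, so reproductive stage is the labelled difference between them. The groups also differ in their share of low and high animal numbers, as given below. The study's methods describe age-matched mice from 2 suppliers and sampling of the caudate lobe, and which supplier each mouse came from is not given in the sources used here.

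Nuclear receptors are transcription factors that bind a lipid-soluble ligand, or none, and regulate genes from short DNA elements. In liver they couple bile acids, fatty acids, oxysterols, vitamin A, steroids and foreign chemicals to the enzymes and transporters that handle these compounds. Many of them bind DNA as a pair with a retinoid X receptor, and they act by exchanging corepressors such as Ncor1 for coactivators such as the Ncoa and Ppargc1 proteins.

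Levels are in TPM, a transcript abundance scaled by transcript length and library total, so that levels of different genes can be compared. Mice carry the names of the labels, a stage (NUL, nulliparous; LAC, lactation day 10; ID6, involution day 6) and an animal number, and numbers under 200 are shown apart from numbers of 200 and above: 3 and 4 nulliparous mice, 3 and 3 lactating mice, and 0 and 6 mice at involution day 6. Where single values are given for a group, they follow the order of the animal numbers: NUL_1, NUL_4 and NUL_13, then NUL_220, NUL_221, NUL_226 and NUL_227, and LAC_36, LAC_102 and LAC_133, then LAC_200, LAC_213 and LAC_240. Zhx2, a repressor of H19 and Afp whose level is known to differ between BALB/c substrains, lay at 2.36 to 3.73 TPM in the 6 mice under 200 and at 0.06 to 0.27 TPM in the 13 others. The summed level of 8 immediate early genes, which respond within minutes to stress or handling, was 165.03 to 399.50 TPM in the nulliparous and lactating mice under 200 and 35.34 to 92.04 TPM in those of 200 and above. All 6 mice at involution day 6 had numbers of 200 and above, so a difference between them and a mixed group cannot be told apart from a difference between ranges unless it is also seen among mice of 200 and above. The 6 hepatocyte markers summed to 59731 to 153614 TPM and the 3 pancreas markers to at most 6.94 TPM, so the tissue carried the markers of its label.

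Over the 19 mice, 6 of the 38 genes averaged at least 50 TPM, 11 averaged 10 to 50 TPM, 16 averaged 1 to 10 TPM and 5 averaged under 1 TPM. Hnf4a, the receptor that maintains hepatocyte identity, was the highest at a mean of 175 TPM, followed by the constitutive androstane receptor Nr1i3 at 109 TPM, the orphan receptor Nr2f6 at 97.0 TPM, Rxra at 91.1 TPM, the liver X receptor Nr1h3 at 86.1 TPM and the bile acid-induced repressor Nr0b2 at 81.3 TPM. At the other end, the vitamin D receptor Vdr lay between 0 and 0.05 TPM and Nr4a3 between 0 and 0.12 TPM in every mouse, and both fell below the mean of 0.1 TPM required for testing. The remaining 36 genes were tested.

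**Figure D1:**
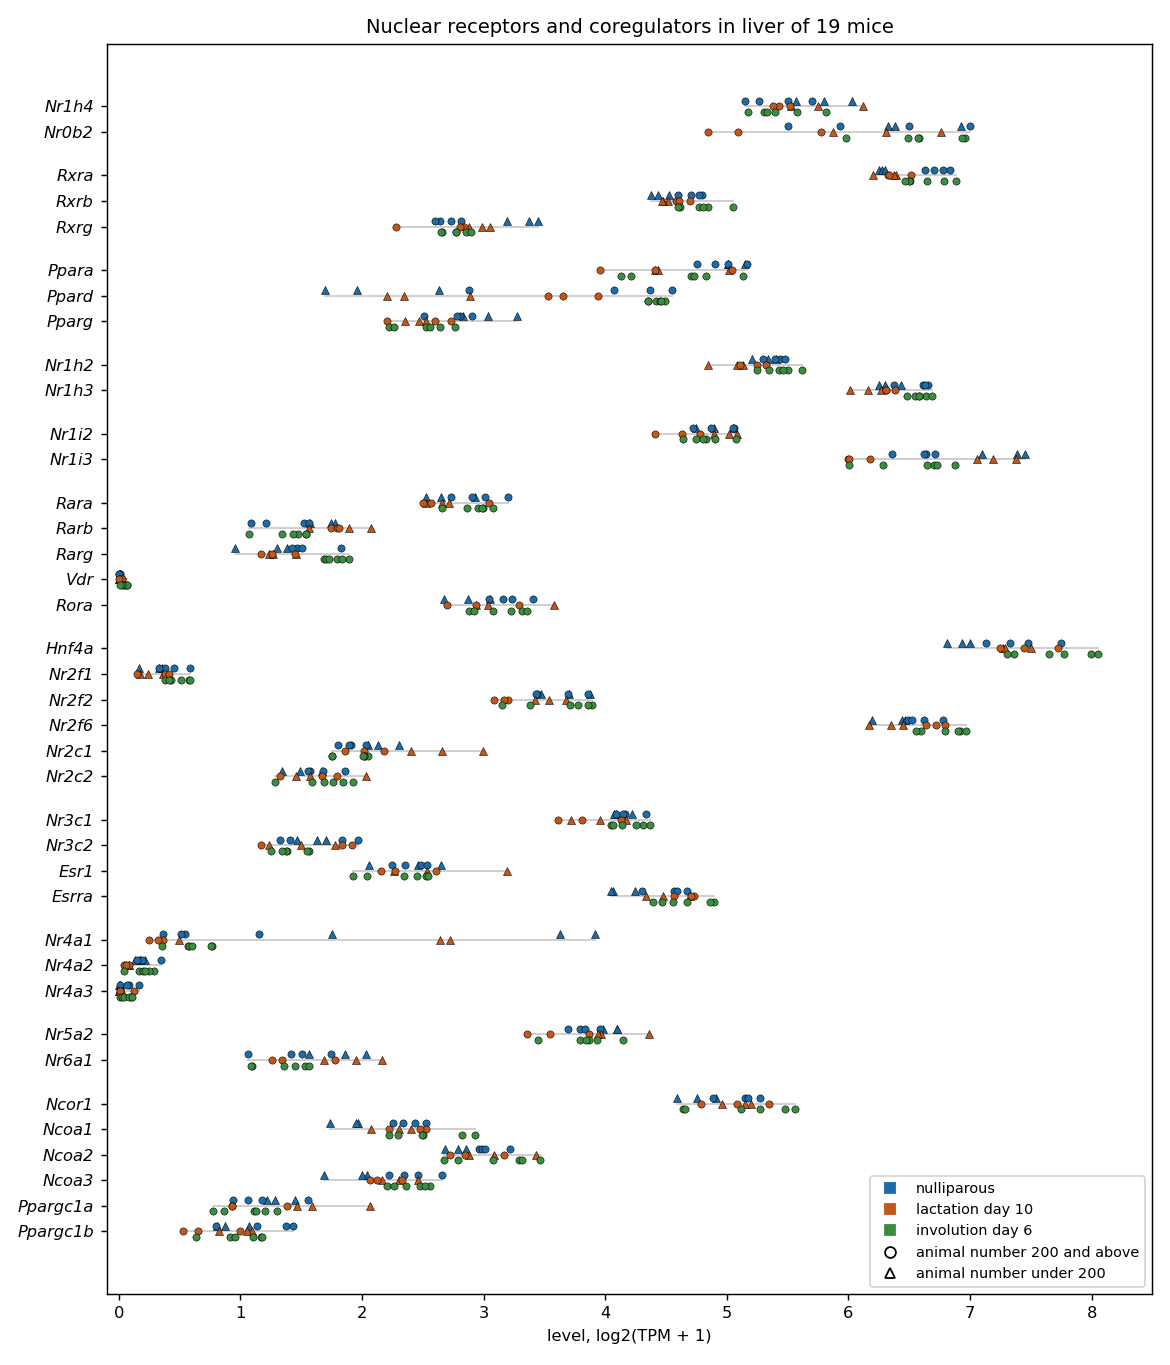
Level of each of the 38 genes in each of the 19 mice, as log2(TPM + 1) on the horizontal axis, with genes grouped by class. Colours mark the stage, circles mark animal numbers of 200 and above and triangles mark numbers under 200. Hnf4a is the highest gene, Vdr and Nr4a3 lie near 0, and circles and triangles do not overlap for Nr1i3.

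Promoters of 6 receptors whose levels moved with stage or range are printed at annotated starts. Levels per gene do not show which start the transcripts used. They are RefSeq sequences (GRCm38.p6) of 300 bases, from 250 before to 50 after the annotated start, in the direction of transcription, and 34 of the 38 genes had such an entry. Capitals mark a motif, searched on both strands and chosen after the sequences were seen: GGGCGG in Ppard, GTTCA repeated after a spacer of 6 bases in Rarb, CCGGAAG in Nr1h2, CACGTG in Nr1i3, AGGTCA in Rxra and TGCGTCA in Nr4a1. Where 2 matches of CCGGAAG overlap, as on opposite strands in Nr1h2, the capitals run through both.
Ppard, chr17:28232504-28232803 (+ strand): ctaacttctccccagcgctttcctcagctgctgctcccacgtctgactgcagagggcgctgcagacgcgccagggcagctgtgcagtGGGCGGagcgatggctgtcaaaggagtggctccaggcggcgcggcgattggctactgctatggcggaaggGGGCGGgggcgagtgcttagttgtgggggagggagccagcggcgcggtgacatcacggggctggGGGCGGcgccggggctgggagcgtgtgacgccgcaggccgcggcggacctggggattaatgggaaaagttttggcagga
Rarb, chr14:16575427-16575726 (- strand): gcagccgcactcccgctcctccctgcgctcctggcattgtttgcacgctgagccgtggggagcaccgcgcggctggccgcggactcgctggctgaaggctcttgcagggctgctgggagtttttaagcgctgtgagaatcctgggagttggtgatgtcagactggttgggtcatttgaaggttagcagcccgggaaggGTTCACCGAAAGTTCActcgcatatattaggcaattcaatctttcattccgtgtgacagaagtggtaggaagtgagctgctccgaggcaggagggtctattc
Nr1h2, chr7:44553916-44554215 (- strand): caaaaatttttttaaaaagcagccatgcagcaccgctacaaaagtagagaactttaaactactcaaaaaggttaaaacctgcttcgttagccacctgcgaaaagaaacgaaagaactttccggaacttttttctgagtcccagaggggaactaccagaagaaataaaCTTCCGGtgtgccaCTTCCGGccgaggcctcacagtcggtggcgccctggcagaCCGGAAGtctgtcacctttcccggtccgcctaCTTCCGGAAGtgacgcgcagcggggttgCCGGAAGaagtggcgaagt
Nr1i3, chr1:171213720-171214019 (+ strand): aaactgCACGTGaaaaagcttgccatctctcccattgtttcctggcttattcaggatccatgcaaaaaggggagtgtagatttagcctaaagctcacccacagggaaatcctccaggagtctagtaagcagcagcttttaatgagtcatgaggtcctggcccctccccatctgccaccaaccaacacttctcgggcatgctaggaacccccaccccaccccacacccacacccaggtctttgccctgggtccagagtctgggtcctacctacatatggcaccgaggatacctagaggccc
Rxra, chr2:27709042-27709341 (+ strand): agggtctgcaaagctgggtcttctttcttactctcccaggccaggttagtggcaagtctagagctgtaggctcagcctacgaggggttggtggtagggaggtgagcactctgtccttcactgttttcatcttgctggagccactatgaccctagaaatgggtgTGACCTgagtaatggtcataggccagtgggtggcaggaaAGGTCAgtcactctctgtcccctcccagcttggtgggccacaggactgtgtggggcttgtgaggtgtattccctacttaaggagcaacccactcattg
Nr4a1, chr15:101266596-101266895 (+ strand): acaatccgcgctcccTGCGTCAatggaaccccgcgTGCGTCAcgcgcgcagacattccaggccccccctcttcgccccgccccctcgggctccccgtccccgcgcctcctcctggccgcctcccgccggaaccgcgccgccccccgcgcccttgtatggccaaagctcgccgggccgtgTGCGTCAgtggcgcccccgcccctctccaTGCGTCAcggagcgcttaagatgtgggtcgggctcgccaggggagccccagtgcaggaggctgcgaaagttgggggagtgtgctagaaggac

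The Rarb sequence holds 1 match of the repeated GTTCA, the direct repeat known as the retinoic acid response element of this promoter, 52 bases before the start. Only 25 of 32851 mouse promoters, or 0.0761%, held this motif. Nr4a1 holds 4 matches of TGCGTCA, a form of the cyclic AMP response element, which was present in 2.12% of all promoters and in no other promoter of these genes. Nr1h2 holds 6 matches of CCGGAAG, the core bound by ETS factors (8.86% of all promoters), and Ppard holds 3 matches of the GC box GGGCGG (35.7%). The nuclear receptor half-site AGGTCA occurred 2 times in the printed start region of Rxra, 1 of 2 listed for that gene, and in 16.3% of all promoters. That Rxra region was printed because it ranked first of the 2 by number of AGGTCA matches. The E-box CACGTG occurred 1 time in Nr1i3 and in 7.15% of all promoters. These matches describe letters in the windows and were not tested as sites.

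Stage was compared with limma on log2(TPM + 1), with p-values adjusted over all 16230 genes tested and a gene counted as changed at an adjusted p under 0.05. From nulliparous to lactation day 10, 0 of the 36 genes rose and 2 fell (Pparg and Nr1h2), or 5.56% of them, beside 2.72% of all genes that rose and 6.49% that fell (9.21% together). From lactation day 10 to involution day 6, 6 rose and 1 fell, or 19.4%, beside 18.1% of all genes that rose and 4.73% that fell (22.8% together). At involution day 6 relative to nulliparous mice 1 gene was higher and 0 were lower, or 2.78%, beside 3.44% of all genes that were higher and 0.912% that were lower (4.36% together). In none of these comparisons did the share of receptors and coregulators that changed exceed that of all genes. The median log2 change of the 36 genes was -0.08, 0.08 and 0.05 in these comparisons, and that of all genes was -0.03, 0.10 and 0.07. When TPM values were rescaled between mice by median ratios, the median of all genes from lactation to involution moved from 0.10 to -0.01, and 1 gene rose (Rarg) and 2 fell (Rarb and Nr2c1) in place of 6 and 1, beside 8.03% of all genes that rose and 8.33% that fell under that scaling. Under that scaling Pparg was lower at involution than in nulliparous mice by 0.47 (adjusted p = 0.045), beside -0.38 (adjusted p = 0.071) without it, and Rarg no longer passed, so that 0 genes were higher and 1 was lower, beside 1.02% and 1.32% of all genes. With the study's added criterion of a log2 change of at least 1, the counts were 0, 1 (Ppard) and 0, beside 0.746%, 1.93% and 0.253% of all genes. Among mice of 200 and above alone, 0 genes changed at lactation, beside 7.07% of all genes (2.61% rose and 4.47% fell). From lactation to involution 3 rose there and 0 fell, beside 10.6% and 3.54% of all genes, and 0 differed between involution and nulliparous mice, beside 0.819% of all genes. By limma's unadjusted p under 0.05 over all 19 mice, 9, 15 and 9 of the 36 genes differed in the 3 comparisons, beside 23.1%, 35.2% and 25.1% of all genes. Both comparisons with lactation day 10 share its mice, so their values are given side by side.

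Whole liver mixes hepatocytes with other cells, and fewer cells of a type and less RNA per cell cannot be told apart. Some markers of other cells moved with stage beside the receptor changes. All 6 Kupffer cell markers rose from lactation to involution, from a summed 103.33 to 216.61 TPM to 350.42 to 495.16 TPM, after 5 of them fell at lactation from 157.88 to 302.06 TPM. Of all genes, 18.1% rose and 4.73% fell from lactation to involution, and 6.49% fell at lactation. Beside these shares, 4 of 4 lymphocyte markers and 3 of 5 sinusoidal endothelial markers rose from lactation to involution. In the same comparison 2 of 6 stellate cell and fibroblast markers and 1 of 5 bile duct markers rose, and 3 of 3 red blood cell markers fell. Their summed levels went from 1.77 to 3.14 TPM to 5.15 to 8.85 TPM (lymphocytes), from 61.12 to 113.26 TPM to 146.98 to 162.54 TPM (sinusoidal), from 87.83 to 110.73 TPM to 122.99 to 163.62 TPM (stellate), and from 19.43 to 29.56 TPM to 29.43 to 39.80 TPM (bile duct). Red blood cell markers went from 828.88 to 2052.21 TPM to 124.20 to 562.45 TPM. At lactation 3 of 6 stellate, 2 of 4 lymphocyte, 1 of 5 sinusoidal and 1 of 5 bile duct markers fell. Relative to nulliparous mice all 6 Kupffer markers were higher at involution, beside 3.44% of all genes. Among mice of 200 and above 2 of 6 were, beside 0.511%. Between ranges 5 of 6 Kupffer markers were higher in mice of 200 and above, beside 16.5% of all genes. So were 3 of 6 hepatocyte and 1 of 5 sinusoidal markers. Every marker of these lists was above 0 in at least 1 mouse, and the part of these cells in the values of Nr1h2, Nr1h3, Rarg, Rarb, Nr2f1, Nr3c1 and Pparg was not tested.

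The ranges of animal number differed more. Among the 13 nulliparous and lactating mice, with stage in the model, 8 of the 36 genes were higher and 7 were lower in mice of 200 and above, or 41.7%, beside 16.5% of all genes that were higher and 9.11% that were lower (25.6% together). Under median-ratio scaling these counts were 6 and 10, beside 11.7% of all genes that were higher and 12.2% that were lower, with Nr0b2, Nr2f2 and Ppargc1a passing as lower and Nr1h3 and Hnf4a no longer passing. Without a filter on low values Hnf4a, Nr1h4 and Nr6a1 did not pass (adjusted p = 0.096, 0.054 and 0.066), and under quantile normalization Rxrb and Esrra did not (adjusted p = 0.071 and 0.051). Only Ppard and Nr4a1 passed a log2 difference of 1 as well, beside 1.94% of all genes. Of the 8 genes that changed between stages, 2 (Ppard and Nr1h3) also differed between ranges, beside the 25.6% of all genes that did. Of the 36 genes, 15 changed in no comparison, and the same share was not counted over all genes.

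**Figure D2:**
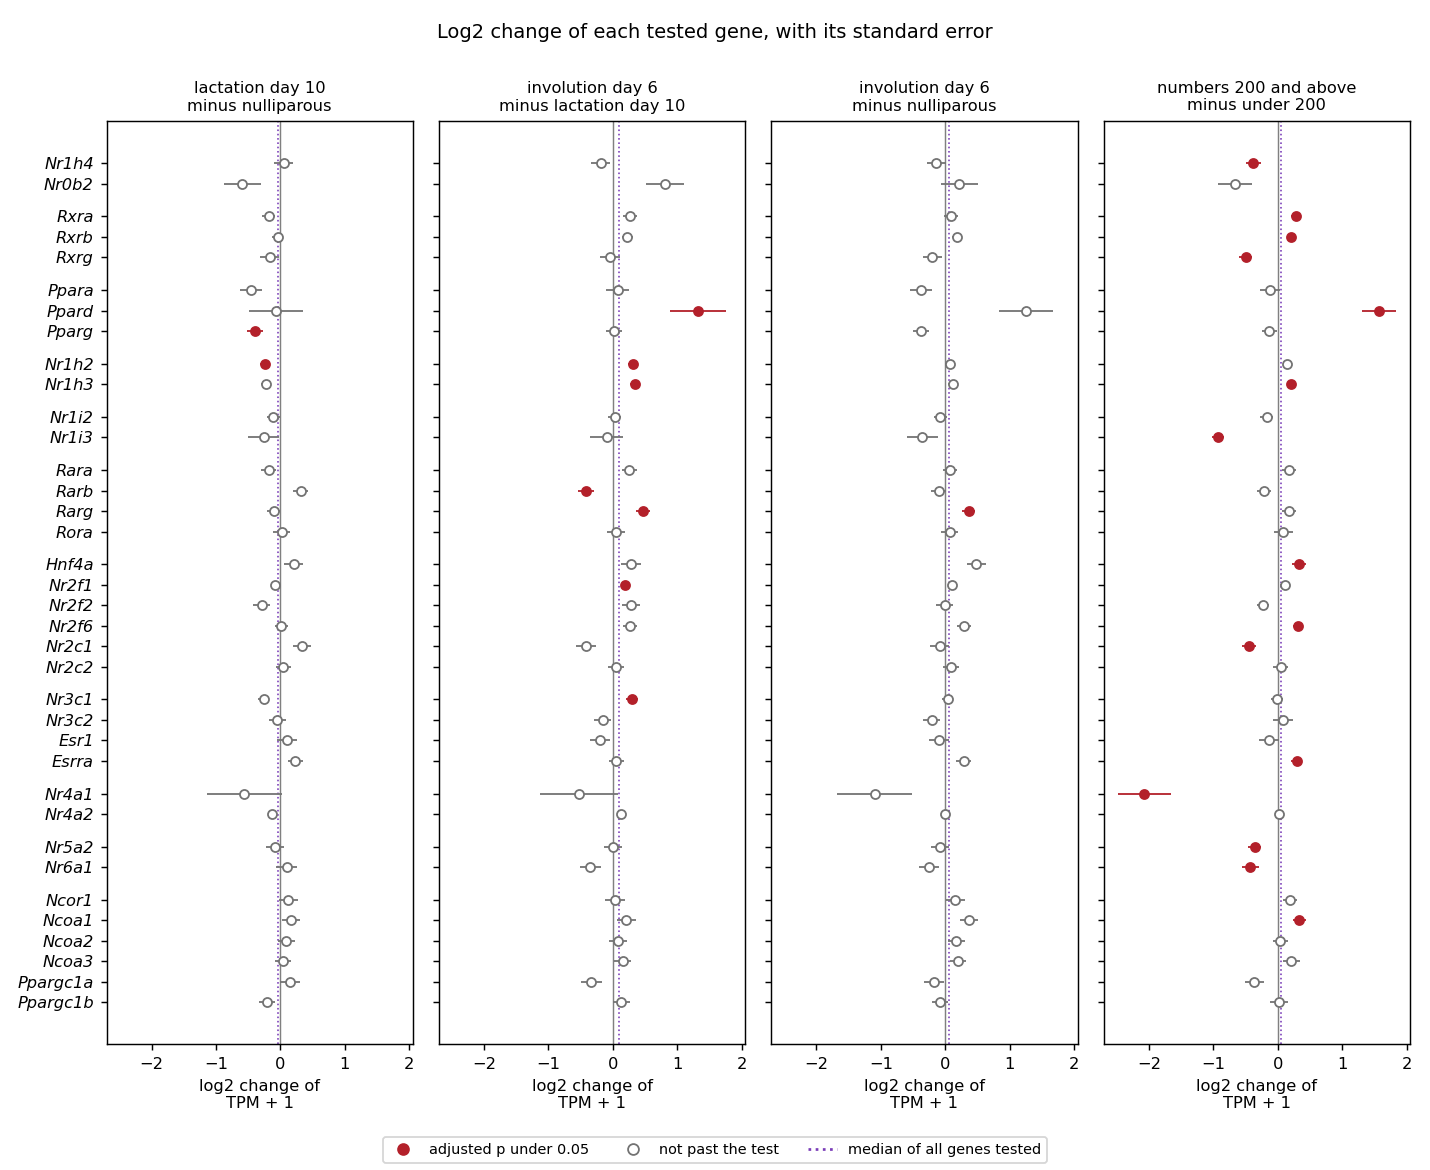
Log2 change of TPM + 1 with its standard error for each of the 36 tested genes in 4 comparisons: lactation day 10 minus nulliparous, involution day 6 minus lactation day 10, involution day 6 minus nulliparous, and animal numbers of 200 and above minus under 200. Red points passed an adjusted p under 0.05, open points did not, and the dotted line is the median of all genes tested. The counts of red points are 2, 7, 1 and 15 from left to right.

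Both liver X receptors, which sense oxysterols and drive cholesterol efflux and lipogenesis, rose from lactation to involution, beside 18.1% of all genes. Nr1h3 had its lowest, median and highest levels at 75.31, 85.36 and 99.62 TPM in nulliparous mice, at 63.59, 77.2 and 82.24 TPM at lactation day 10, and at 88.32, 94.8 and 101.86 TPM at involution day 6. Every mouse at involution day 6 was above every lactating mouse. Nr1h3 rose from lactation to involution by 0.34 on the log2 scale (SE 0.08, adjusted p = 0.0034), a 1.27-fold higher mean level. Among mice of 200 and above alone the rise was 0.25 (SE 0.07, adjusted p = 0.024), again with no overlap, and under median-ratio scaling the change was 0.18 (adjusted p = 0.073). The change from nulliparous to lactating mice was -0.22 (SE 0.07, adjusted p = 0.066), and it passed the test with range as a covariate (-0.21, adjusted p = 0.016). Between ranges Nr1h3 was higher by 0.21 in mice of 200 and above (SE 0.06, adjusted p = 0.019), and the difference was 0.14 under median-ratio scaling (adjusted p = 0.096).

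Nr1h2, the liver X receptor found in most tissues, lay at 35.85, 41.07 and 43.63 TPM (lowest, median, highest) in nulliparous mice, 27.77, 33.8 and 38.92 TPM at lactation and 37.01, 42.6 and 48.05 TPM at involution. The lactating mice were the lowest group, with overlap on both sides. Nr1h2 fell by 0.24 on the log2 scale at lactation (SE 0.07, adjusted p = 0.046) and rose by 0.31 from lactation to involution (SE 0.08, adjusted p = 0.0066). The fall was lost when any 1 of 14 mice was left out (NUL_1, NUL_13, NUL_220, NUL_221, NUL_226 and NUL_227, LAC_36, LAC_102, LAC_133 and LAC_213, ID6_216, ID6_218, ID6_230 and ID6_232), with adjusted p of 0.051 to 0.11. It was -0.18 among mice of 200 and above (adjusted p = 0.27), where the rise was 0.21 (adjusted p = 0.11). Under median-ratio scaling the fall had an adjusted p of 0.068 and the rise one of 0.12.

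Among 8 known targets of the liver X receptors, 5 rose and 1 fell from lactation to involution, beside 18.1% and 4.73% of all genes, with a median log2 change of 0.76 beside 0.10 for all genes. The sterol exporters Abcg8 and Abcg5 rose by 0.99 (SE 0.13, adjusted p = 3.8e-05) and 0.94 (SE 0.12, adjusted p = 3.1e-05), and the lipogenic regulator Srebf1 rose by 0.91 (SE 0.30, adjusted p = 0.034), or by 0.59 among mice of 200 and above (adjusted p = 0.13). Abcg5 was at 41.81 to 46.00 TPM in the lactating mice and at 68.23 to 107.00 TPM at involution day 6. Among mice of 200 and above 4 targets rose and 1 fell, beside the 14.1% of all genes that changed in either direction, and Abcg8 rose there by 1.12 (adjusted p = 0.00031). At lactation 2 targets rose and 2 fell, beside 2.72% and 6.49% of all genes, led by the desaturase Scd1 at 1.96 (SE 0.30, adjusted p = 0.00046). Relative to nulliparous mice 5 targets were higher and 0 were lower at involution, beside 3.44% and 0.912% of all genes. When that comparison was limited to mice of 200 and above, 1 was higher (Abcg5, by 0.74, SE 0.13, adjusted p = 0.023) and 0 were lower, beside 0.511% and 0.308% of all genes. Between ranges 2 targets were higher and 0 were lower, beside 16.5% and 9.11% of all genes.

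**Figure D3:**
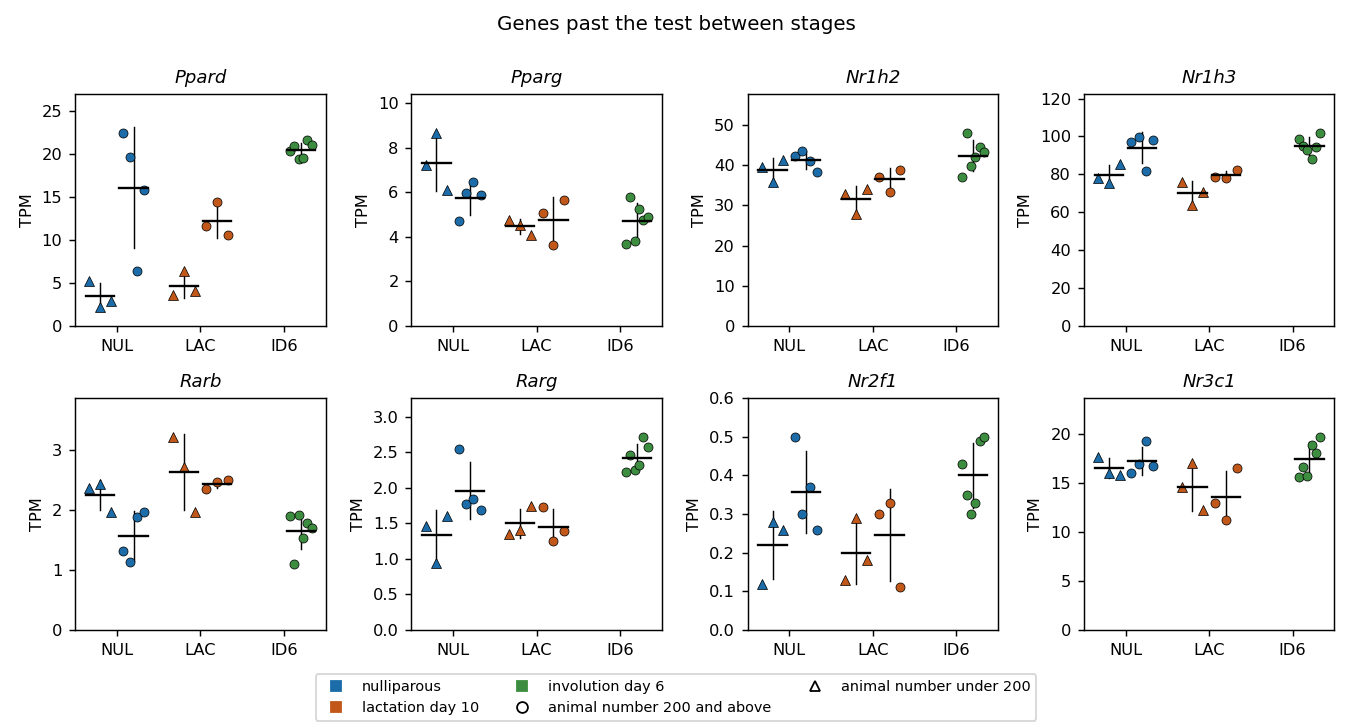
TPM in each mouse of the 8 genes that passed the test between stages (NUL, nulliparous; LAC, lactation day 10; ID6, involution day 6). Triangles are mice numbered under 200 and circles those of 200 and above, horizontal bars are means and vertical bars are standard deviations of each range within a stage. Nr1h3, Rarg and Ppard lie higher and Rarb lies lower in all 6 mice at involution day 6 than in any lactating mouse, and Ppard is also split by range.

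The peroxisome proliferator-activated receptors, which respond to fatty acids, differed in their changes: Ppard rose from lactation to involution, Pparg fell at lactation and Ppara passed in neither. Ppard, the family member expressed in most tissues, was at 5.19, 2.24 and 2.89 TPM in the nulliparous mice under 200 and at 22.43, 19.63, 6.36 and 15.85 TPM in those of 200 and above. In lactating mice it was at 3.62, 6.40 and 4.08 TPM under 200 and at 11.58, 14.38 and 10.55 TPM at 200 and above. At involution day 6 all 6 mice lay between 19.43 and 21.56 TPM. Levels were low in the mice under 200, intermediate in lactating mice of 200 and above, and within a narrow band at involution, while NUL_226 lay near the level of the mice under 200.

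Between ranges, Ppard was higher by 1.57 on the log2 scale in mice of 200 and above (SE 0.27, adjusted p = 0.0010), 4.67-fold in mean level among nulliparous mice and 2.59-fold among lactating mice. This difference passed the test in all 20 alternatives other than the study's criteria, with adjusted p between 0.00026 and 0.0039. Ppard rose from lactation to involution by 1.33 (SE 0.44, adjusted p = 0.035), 2.42-fold in mean level. With range as a covariate that change was 0.54 (SE 0.26, adjusted p = 0.17), and among mice of 200 and above it was 0.71 (SE 0.27, adjusted p = 0.10) with no overlap of the groups. It was also lost without any 1 of 9 mice (LAC_36, LAC_102 and LAC_133 and each mouse at involution), with adjusted p of 0.051 to 0.083. Relative to nulliparous mice the change at involution was 1.26 (SE 0.42, adjusted p = 0.087).

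Pparg, the adipogenic member of the family, lay at 4.69, 6.10 and 8.66 TPM (lowest, median, highest) in nulliparous mice, at 3.62, 4.65 and 5.63 TPM at lactation and at 3.66, 4.84 and 5.80 TPM at involution. The 2 highest levels were those of NUL_1 and NUL_4, at 7.20 and 8.66 TPM, and the groups overlapped. Pparg fell by 0.40 on the log2 scale at lactation (SE 0.12, adjusted p = 0.042). The call was lost under median-ratio scaling (-0.35, adjusted p = 0.072), under quantile normalization (-0.37, adjusted p = 0.050), without a filter on low values (adjusted p = 0.064) and with only the nulliparous and lactating mice in the fit (adjusted p = 0.065). The fall was -0.60 among mice under 200 (SE 0.15, adjusted p = 0.035) and -0.24 among mice of 200 and above (SE 0.14, adjusted p = 0.38), and the difference between ranges was 0.36 (unadjusted p = 0.12). The fall over both ranges was also lost without any 1 of 11 mice (NUL_1, NUL_4, NUL_13, NUL_221 and NUL_226, LAC_36, LAC_102, LAC_133 and LAC_213, ID6_230 and ID6_232), with adjusted p of 0.051 to 0.094. The 3 fat cell markers, which bear on attached fat, summed to 18.25 TPM in NUL_1 and to 0.19 to 2.85 TPM in the other nulliparous mice, to 0.16 to 2.61 TPM at lactation and to 0.14 to 19.11 TPM at involution, and 0 of the 3 changed between stages. Their part in the Pparg values was not tested.

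Ppara, which drives hepatic fatty acid oxidation, lay at 26.06, 31.17 and 34.82 TPM in nulliparous mice, 14.55, 20.4 and 31.90 TPM at lactation and 16.52, 25.3 and 34.17 TPM at involution. The log2 change was -0.45 at lactation (SE 0.17, adjusted p = 0.11), and -0.12 between ranges (SE 0.15, adjusted p = 0.60). Of 15 known Ppara targets, 0 were higher and 10 were lower in mice of 200 and above, beside 16.5% and 9.11% of all genes, with a median log2 difference of -0.71. Cyp4a14, Acot1 and Cyp4a10, which oxidize or hydrolyse fatty acids and their esters, were lower by 3.53 (SE 0.25, adjusted p = 1.1e-06), 3.41 (SE 0.16, adjusted p = 1.9e-08) and 3.38 (SE 0.21, adjusted p = 3.3e-07). Cyp4a10 was at 592.81 to 1610.32 TPM in the 6 mice under 200 and at 42.70 to 274.78 TPM in nulliparous and lactating mice of 200 and above. From lactation to involution 0 targets rose and 7 fell, beside 18.1% and 4.73% of all genes, and among mice of 200 and above 0 rose and 4 fell, beside 10.6% and 3.54%, with Cyp4a10 lower by 3.71 (SE 0.36, adjusted p = 5.7e-05). At lactation 0 rose and 3 fell, beside 2.72% and 6.49% of all genes, among them the lipid droplet protein Plin2 at -0.65 (SE 0.13, adjusted p = 0.0038). Relative to nulliparous mice 0 were higher and 4 were lower at involution, beside 3.44% and 0.912% of all genes. Limited to mice of 200 and above, that comparison gave 0 higher and 1 lower (Cyp4a14, by 3.19, SE 0.45, adjusted p = 0.0067), beside 0.511% and 0.308% of all genes. Within the same range 1 target rose and 5 fell at lactation, beside 2.61% and 4.47% of all genes, and the gene that rose was Cyp4a10, by 2.35 (SE 0.39, adjusted p = 0.0038).

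The retinoid X receptors, the shared partners of most lipid-sensing receptors, did not pass the test between stages. Of all genes, 9.21%, 22.8% and 4.36% passed in the 3 stage comparisons. All 3 members differed between ranges, beside 25.6% of all genes, with Rxra and Rxrb higher and Rxrg lower in mice of 200 and above. Rxra was at 75.25, 76.31 and 77.92 TPM in nulliparous mice under 200 and at 98.07, 108.51, 103.52 and 113.02 TPM in those of 200 and above. In lactating mice the ranges overlapped, at 82.77, 81.96 and 72.78 TPM and at 79.42, 79.74 and 90.52 TPM. At involution day 6 it lay between 87.15 and 117.01 TPM. Rxra was higher by 0.28 in mice of 200 and above (SE 0.07, adjusted p = 0.015). The log2 change at lactation was -0.34 in mice of 200 and above (SE 0.07, adjusted p = 0.015), with no overlap, and 0.05 in mice under 200 (SE 0.08, adjusted p = 0.75). The difference between these changes was -0.39 (SE 0.10, unadjusted p = 0.0028, adjusted p = 0.18). In a fit of the mice of 200 and above alone, with all 3 stages, the same change did not pass (adjusted p = 0.065).

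Rxrb was higher by 0.21 in mice of 200 and above (SE 0.05, adjusted p = 0.0083), at 22.98 to 26.78 TPM against 19.75 to 22.03 TPM. Rxrg, otherwise known from muscle and brain, was lower by 0.50 (SE 0.10, adjusted p = 0.0038), at 3.85 to 6.17 TPM against 6.37 to 9.91 TPM. Neither gene overlapped between the ranges in the 13 mice. Rxrg passed in all 20 alternatives other than the study's criteria, and Rxrb in all but quantile normalization. The log2 changes of Rxra and Rxrb from lactation to involution were 0.27 (adjusted p = 0.074) and 0.22 (adjusted p = 0.067).

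In the bile acid pair, the receptor Nr1h4 and the repressor it induces, Nr0b2, differed in spread. Nr1h4 lay at 34.41 to 64.20 TPM in nulliparous mice, 40.61 to 68.63 TPM at lactation and 35.05 to 55.44 TPM at involution, and it was lower by 0.38 in mice of 200 and above (SE 0.11, adjusted p = 0.026). That call was lost without NUL_4, NUL_13 or NUL_227 or LAC_36, with adjusted p of 0.050 to 0.065. Nr0b2 was at 107.46, 57.70 and 78.11 TPM in lactating mice under 200 and at 27.80, 33.02 and 53.88 TPM in those of 200 and above, and it reached 62.02 to 123.03 TPM at involution. Every mouse at involution was above every lactating mouse of 200 and above. The change from lactation to involution was 0.81 over all mice (SE 0.29, adjusted p = 0.054), and within mice of 200 and above Nr0b2 rose by 1.35 (SE 0.31, adjusted p = 0.010), 2.55-fold in mean level. Nulliparous mice lay at 44.45 to 126.83 TPM, a span that held every mouse at involution. Relative to nulliparous mice the log2 change was 0.22 at involution (SE 0.28, adjusted p = 0.65) and -0.59 at lactation (SE 0.28, adjusted p = 0.22). Among mice of 200 and above these changes were 0.35 (SE 0.28, adjusted p = 0.69) and -0.99 (SE 0.33, adjusted p = 0.095).

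Nr0b2 is known to repress the bile acid enzymes Cyp7a1 and Cyp8b1. Cyp8b1 lay at 318.28 to 415.81 TPM at lactation and at 131.66 to 243.40 TPM at involution, without overlap, and fell by 1.01 (SE 0.13, adjusted p = 2.4e-05), or by 0.96 among mice of 200 and above (adjusted p = 0.0012). At lactation it had risen by 0.53 (SE 0.12, adjusted p = 0.011). Cyp7a1, which catalyses the first and limiting step from cholesterol to bile acids, fell by 1.56 from lactation to involution (SE 0.49, adjusted p = 0.028). It did not pass among mice of 200 and above, where the median log2 change of the 2 enzymes was -0.99. At lactation Cyp7a1 did not pass either, and the median log2 change of the 2 enzymes was 0.99. Between ranges Cyp7a1 was lower by 0.85 in mice of 200 and above (SE 0.29, adjusted p = 0.048). Cyp7a1 lay at 27.39 to 115.49 TPM in lactating mice, and at 27.39 to 58.82 TPM in those of 200 and above. Mice at involution lay at 8.95 to 13.10 TPM except ID6_230 at 72.87 TPM and ID6_232 at 57.19 TPM. Nr0b2 was at 62.02 and 121.44 TPM in these mice, in that order. Of 4 known Nr1h4 targets 3 were tested, and Slc51a, at 0 to 0.01 TPM in every mouse, was not. From lactation to involution 1 of the 3 rose and 0 fell, beside 18.1% and 4.73% of all genes. It was Slc51b, which forms a bile acid exporter together with Slc51a and rose by 0.72 (SE 0.13, adjusted p = 0.00074). Between ranges 0 were higher and 1 was lower, beside 16.5% and 9.11% of all genes. It was the phospholipid exporter Abcb4, lower by 0.29 in mice of 200 and above (SE 0.07, adjusted p = 0.0096).

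The xenobiotic receptors differed from each other. Nr1i3 was at 135.85, 166.42 and 174.54 TPM in nulliparous mice under 200 and at 103.60, 98.69, 97.69 and 81.04 TPM in those of 200 and above. In lactating mice it was at 165.63, 145.15 and 131.84 TPM under 200 and at 62.83, 71.46 and 63.35 TPM at 200 and above. Mice at involution lay between 63.30 and 116.71 TPM. The ranges did not overlap in either stage, and Nr1i3 was lower by 0.92 in mice of 200 and above (SE 0.10, adjusted p = 3.1e-05), the smallest adjusted p among the 36 genes. It passed in all 20 alternatives other than the study's criteria, with adjusted p between 1.2e-05 and 0.00018. At lactation the log2 change was -0.52 in mice of 200 and above (SE 0.11, adjusted p = 0.018) and -0.10 in mice under 200 (SE 0.12, adjusted p = 0.63), a difference of -0.42 (SE 0.16, unadjusted p = 0.025, adjusted p = 0.30). In the fit of mice of 200 and above alone it did not pass (adjusted p = 0.095).

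Nr1i2, the pregnane X receptor, lay at 20.29 to 32.93 TPM over all mice and changed in no comparison. All 5 known targets of both receptors were lower in mice of 200 and above, beside 9.11% of all genes, with a median log2 difference of -0.95 beside 0.05 for all genes. Cyp3a11, a drug-metabolizing cytochrome P450, was at 1997.01 to 2927.58 TPM under 200 and at 349.55 to 699.47 TPM at 200 and above, lower by 2.37 (SE 0.15, adjusted p = 4.1e-07). Cyp2b10, the classic Nr1i3 target, was lower by 0.96 (SE 0.19, adjusted p = 0.0028) with overlapping values. From lactation to involution Cyp2b10 fell by 1.76 (SE 0.29, adjusted p = 0.00027) and Cyp2c55 by 1.30 (SE 0.28, adjusted p = 0.0022), and both also fell among mice of 200 and above. At lactation Cyp2c55 rose by 1.06 (SE 0.27, adjusted p = 0.017), and at involution Cyp2b10 was lower than in nulliparous mice by 1.01 (SE 0.28, adjusted p = 0.049). That call was lost among mice of 200 and above (-0.61, SE 0.18, adjusted p = 0.18), where 0 of the 5 targets differed between involution and nulliparous mice.

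The retinoic acid receptors Rarb and Rarg moved in opposite directions. Rarb, whose promoter carries the direct repeat printed above, lay at 1.13, 1.96 and 2.44 TPM in nulliparous mice, 1.96, 2.49 and 3.22 TPM at lactation and 1.10, 1.74 and 1.91 TPM at involution. Every mouse at involution was below every lactating mouse. Rarb fell by 0.41 from lactation to involution (SE 0.12, adjusted p = 0.019), 1.53-fold in mean level. The change was -0.38 among mice of 200 and above (SE 0.13, adjusted p = 0.066), also without overlap, and its call was lost without ID6_209 (adjusted p = 0.052) and with range as a covariate (adjusted p = 0.10). At lactation the change was 0.31 (SE 0.12, adjusted p = 0.10).

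Rarg lay at 0.94, 1.69 and 2.55 TPM in nulliparous mice, 1.25, 1.40 and 1.74 TPM at lactation and 2.23, 2.40 and 2.72 TPM at involution. All mice at involution were above all lactating mice, and NUL_220, at 2.55 TPM, was the only other mouse in their band. Rarg rose from lactation to involution by 0.47 (SE 0.11, adjusted p = 0.0036), and among mice of 200 and above by 0.48 (SE 0.10, adjusted p = 0.0073), 1.67-fold in mean level. This rise passed the test in all 29 alternatives other than the study's criteria, with adjusted p of at most 0.022. Relative to nulliparous mice it was higher by 0.36 (SE 0.10, adjusted p = 0.049), a call lost without any 1 of 16 mice (NUL_1, NUL_4, NUL_13 and NUL_221 and each lactating and involution mouse), with adjusted p of 0.053 to 0.11. That difference was 0.22 among mice of 200 and above (SE 0.09, adjusted p = 0.37), and 0.29 under both median-ratio scaling (adjusted p = 0.096) and quantile normalization (adjusted p = 0.092). Rara, the main retinoic acid receptor here at 4.65 to 8.22 TPM, and the circadian receptor Rora, at 5.40 to 10.97 TPM, changed in no comparison.

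Among 5 genes known to respond to retinoic acid, the median log2 difference between ranges was 0.21, beside 0.05 for all genes. Cyp26a1, which degrades retinoic acid, was at 5.23 to 23.75 TPM in the 6 mice under 200 and at 0.39 to 2.64 TPM in all 13 others, lower by 2.52 between ranges (SE 0.35, adjusted p = 0.00027). Of the 5 genes, 2 were higher and 2 lower between ranges, beside 25.6% of all genes in either direction, and Tgm2 rose from lactation to involution by 0.59 (SE 0.12, adjusted p = 0.0016). Among mice of 200 and above, 3 rose and 1 fell at lactation, beside 7.07% of all genes, and 2 rose and 3 fell from lactation to involution, beside 14.1%. Cyp26a1 was there at 0.43 to 0.69 TPM in nulliparous mice, 1.78 to 2.64 TPM at lactation and 0.39 to 1.27 TPM at involution, rising by 1.04 (SE 0.15, adjusted p = 0.0019) and then falling by 0.76 (SE 0.14, adjusted p = 0.0029).

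Among the orphan receptors, Nr2f1 passed the test between stages. Nr2f1, a COUP factor, rose by 0.20 from lactation to involution (SE 0.07, adjusted p = 0.047) at levels of only 0.11 to 0.50 TPM, and its call was lost without any 1 of 12 mice (NUL_4, NUL_13, NUL_221 and NUL_227, LAC_36, LAC_102, LAC_133 and LAC_240, ID6_201, ID6_209, ID6_230 and ID6_232), with adjusted p of 0.051 to 0.10. The Nr2f1 change was 0.17 among mice of 200 and above (adjusted p = 0.19), and 0.15 under median-ratio scaling (adjusted p = 0.13). The related Nr2f2 lay at 7.47 to 13.85 TPM. In the fit with a mean for each range and stage it passed at lactation in mice of 200 and above, where lactating mice, at 7.47, 8.20 and 7.99 TPM, lay below nulliparous mice, at 9.77 to 13.47 TPM. The log2 change there was -0.45 (SE 0.12, adjusted p = 0.047) against -0.14 under 200, a difference with an unadjusted p of 0.11, and in the fit of mice of 200 and above alone it did not pass (adjusted p = 0.14).

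Nr2f6, Hnf4a and Nr2c1 differed between ranges. Nr2f6 was higher by 0.31 in mice of 200 and above (SE 0.07, adjusted p = 0.0062), at 88.95 to 110.14 TPM against 70.90 to 87.51 TPM, with no overlap. The testicular receptor Nr2c1 was lower by 0.45 (SE 0.11, adjusted p = 0.012), with lactating mice under 200 at 5.31, 6.96 and 4.30 TPM above every other mouse. Hnf4a was higher by 0.33 (SE 0.11, adjusted p = 0.048), at 111.07, 121.59 and 126.63 TPM in nulliparous mice under 200 and 139.05 to 264.74 TPM in every other mouse. Its call was lost without any 1 of 10 mice (NUL_1, NUL_4, NUL_13, NUL_220, NUL_226 and NUL_227, LAC_102, LAC_133, LAC_213 and LAC_240), with adjusted p of 0.054 to 0.12, and under median-ratio scaling (adjusted p = 0.11). Nr2c2, at 1.44 to 3.09 TPM, changed in no comparison. Of 7 known Hnf4a targets, 2 were higher and 2 lower between ranges, beside 25.6% of all genes in either direction, the largest being the thyroid hormone carrier Ttr at 0.83 (SE 0.14, adjusted p = 0.00087), and 2 rose from lactation to involution, beside 18.1%, led by the glucose-releasing enzyme G6pc at 0.99 (SE 0.28, adjusted p = 0.015). None of the 7 changed in the other stage comparisons by limma.

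Of the steroid and estrogen-related receptors, the glucocorticoid receptor Nr3c1 changed between stages. It lay at 15.81, 16.73 and 19.24 TPM in nulliparous mice, 11.23, 13.8 and 17.06 TPM at lactation and 15.57, 17.4 and 19.70 TPM at involution. Lactating mice were the lowest group, with LAC_102 and LAC_240 overlapping the others. Nr3c1 rose from lactation to involution by 0.30 (SE 0.09, adjusted p = 0.026), by 0.35 among mice of 200 and above (SE 0.11, adjusted p = 0.053), and by 0.31 with range as a covariate (adjusted p = 0.047). The call was lost without LAC_133, LAC_200 or LAC_213 or ID6_218 or ID6_232, with adjusted p of 0.051 to 0.064, and under median-ratio scaling, with a change of 0.14 (adjusted p = 0.25). Among 10 known Nr3c1 targets, 1 rose and 2 fell from lactation to involution, beside 22.8% of all genes in either direction. The metallothioneins Mt2 and Mt1 fell by 2.52 (SE 0.65, adjusted p = 0.0086) and 2.33 (SE 0.40, adjusted p = 0.00042), and the kinase Sgk1 rose by 1.08 (SE 0.30, adjusted p = 0.015). At lactation Mt1 rose by 1.34 (SE 0.39, adjusted p = 0.037). Within mice of 200 and above 0 targets rose and 1 fell from lactation to involution, beside 14.1% of all genes: Mt1 fell by 1.63 (SE 0.47, adjusted p = 0.033), and Mt2 (-1.51, adjusted p = 0.25) and Sgk1 (0.84, adjusted p = 0.093) did not pass. At lactation 0 targets passed there, with Mt1 at 0.45 (adjusted p = 0.68). Between ranges 1 target was higher and 2 were lower, beside 25.6% of all genes in either direction.

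Esrra, which governs mitochondrial genes together with Ppargc1a, was higher by 0.30 in mice of 200 and above (SE 0.08, adjusted p = 0.020), with nulliparous mice under 200, at 15.73, 15.55 and 17.93 TPM, below all others. The call was lost without NUL_1 or NUL_4 (adjusted p = 0.052 in both). The median log2 difference of 5 known targets of Esrra and Ppargc1a was 0.03 between ranges, beside 0.05 for all genes. The mineralocorticoid receptor Nr3c2, at 1.25 to 2.91 TPM, and the estrogen receptor Esr1, at 2.80 to 8.12 TPM, changed in no comparison.

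Nr4a1 showed the largest log2 difference between ranges among the 36 genes. This ligand-independent receptor is an immediate early gene, and it was at 2.37, 11.36 and 14.08 TPM in nulliparous mice under 200 and at 0.46, 0.43, 1.23 and 0.29 TPM in those of 200 and above. Lactating mice were at 5.23, 5.62 and 0.41 TPM under 200 and at 0.29, 0.19 and 0.25 TPM at 200 and above, and mice at involution were at 0.28 to 0.70 TPM. LAC_133, at 0.41 TPM, was the only mouse under 200 within the band of the others. Nr4a1 was lower by 2.07 on the log2 scale in mice of 200 and above (SE 0.41, adjusted p = 0.0028), 15.4-fold in mean level in either stage, and passed in all 20 alternatives other than the study's criteria, which it also met.

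The other immediate early genes moved with it. Of 8, 0 were higher and 7 lower in mice of 200 and above, beside 16.5% and 9.11% of all genes, with a median log2 difference of -2.28, and 0 changed between stages by limma. Egr1, Fos and Junb were lower by 4.43 (SE 0.33, adjusted p = 1.7e-06), 3.71 (SE 0.28, adjusted p = 2.0e-06) and 2.51 (SE 0.19, adjusted p = 2.2e-06). Fos was at 6.85 to 33.72 TPM in the 6 mice under 200, with LAC_133 the lowest of them, and at 0.18 to 0.94 TPM in the other 13. Of 9 clock genes 4 were higher and 0 lower between ranges, beside the same shares, led by Cry1 at 1.42 (SE 0.22, adjusted p = 0.00059) and Npas2 at 1.12 (SE 0.25, adjusted p = 0.0058). The part of handling or of the hour of sampling in the range differences was not tested. Nr4a2 lay at 0.03 to 0.27 TPM, and all 6 lactating mice, at 0.03 to 0.06 TPM, were below all nulliparous mice, at 0.10 to 0.27 TPM, with a log2 change of -0.13 (SE 0.05, adjusted p = 0.076).

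**Figure D4:**
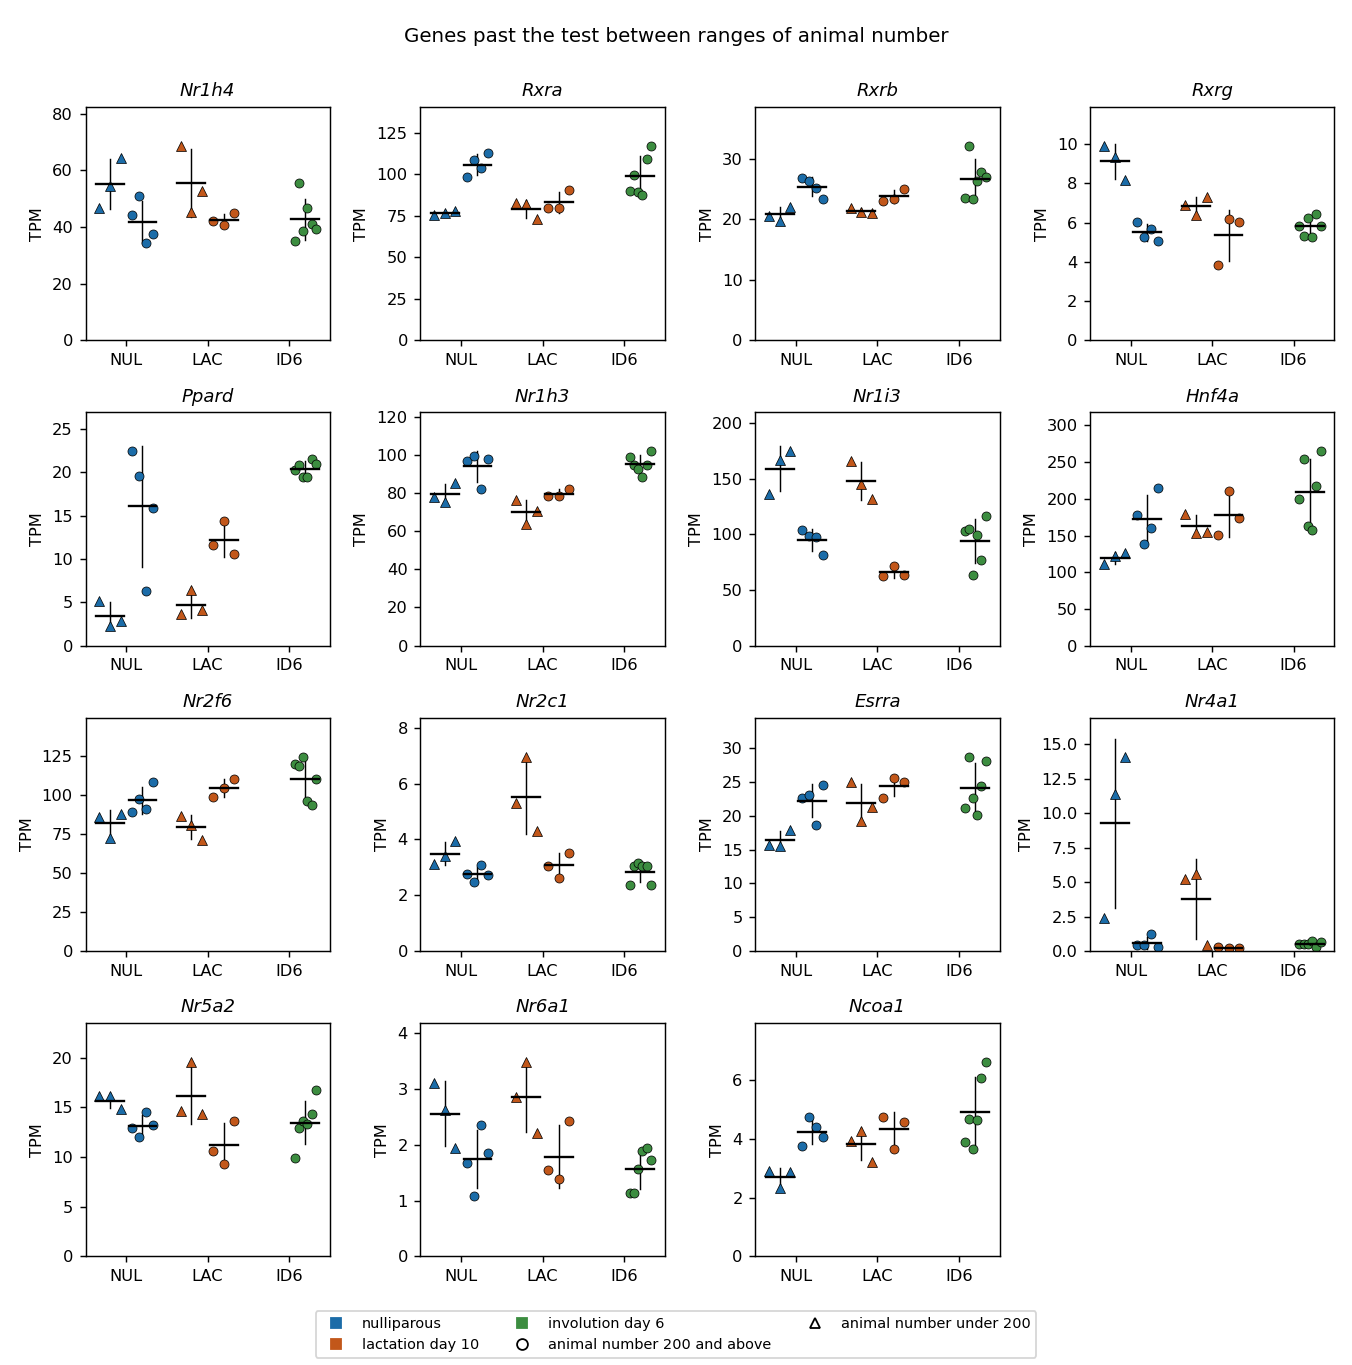
TPM in each mouse of the 15 genes that passed the test between ranges of animal number, by stage (NUL, nulliparous; LAC, lactation day 10; ID6, involution day 6). Triangles are mice numbered under 200 and circles those of 200 and above, horizontal bars are means and vertical bars are standard deviations of each range within a stage. Triangles and circles do not overlap in NUL and LAC mice together for Rxrb, Rxrg, Nr1i3 and Nr2f6.

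The NR5 and NR6 members were lower in mice of 200 and above, beside 9.11% of all genes. Nr5a2, the liver receptor homolog that activates bile acid enzymes, was at 14.37 to 19.54 TPM under 200 and at 9.26 to 14.49 TPM at 200 and above, lower by 0.36 (SE 0.10, adjusted p = 0.018). The germ cell factor Nr6a1 was lower by 0.43 (SE 0.13, adjusted p = 0.032) at 1.95 to 3.48 TPM against 1.09 to 2.43 TPM, a call lost without any 1 of 8 mice (NUL_1, NUL_4, NUL_220 and NUL_221, LAC_36, LAC_102, LAC_200 and LAC_213), with adjusted p of 0.051 to 0.081. Neither gene changed between stages by limma.

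Of the 6 coregulators, none changed between stages by limma, beside 9.21%, 22.8% and 4.36% of all genes in the 3 stage comparisons. Between ranges 1 of them, the coactivator Ncoa1, differed, beside 25.6% of all genes. It was at 2.91, 2.33 and 2.87 TPM in nulliparous mice under 200, below every other mouse, and was higher by 0.34 in mice of 200 and above (SE 0.10, adjusted p = 0.022). That call was lost without NUL_4 (adjusted p = 0.056). The corepressor Ncor1 was the most abundant at 23.15 to 46.22 TPM, followed by Ncoa2 at 5.38 to 10.02 TPM and Ncoa3 at 2.23 to 5.33 TPM. The mitochondrial coactivators Ppargc1a and Ppargc1b lay at 0.71 to 3.19 TPM and 0.44 to 1.70 TPM, and LAC_102 had the highest Ppargc1a. The log2 difference of Ppargc1a between ranges was -0.36 (SE 0.14, adjusted p = 0.083), and it passed under median-ratio scaling (-0.42, adjusted p = 0.048).

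**Figure D5:**
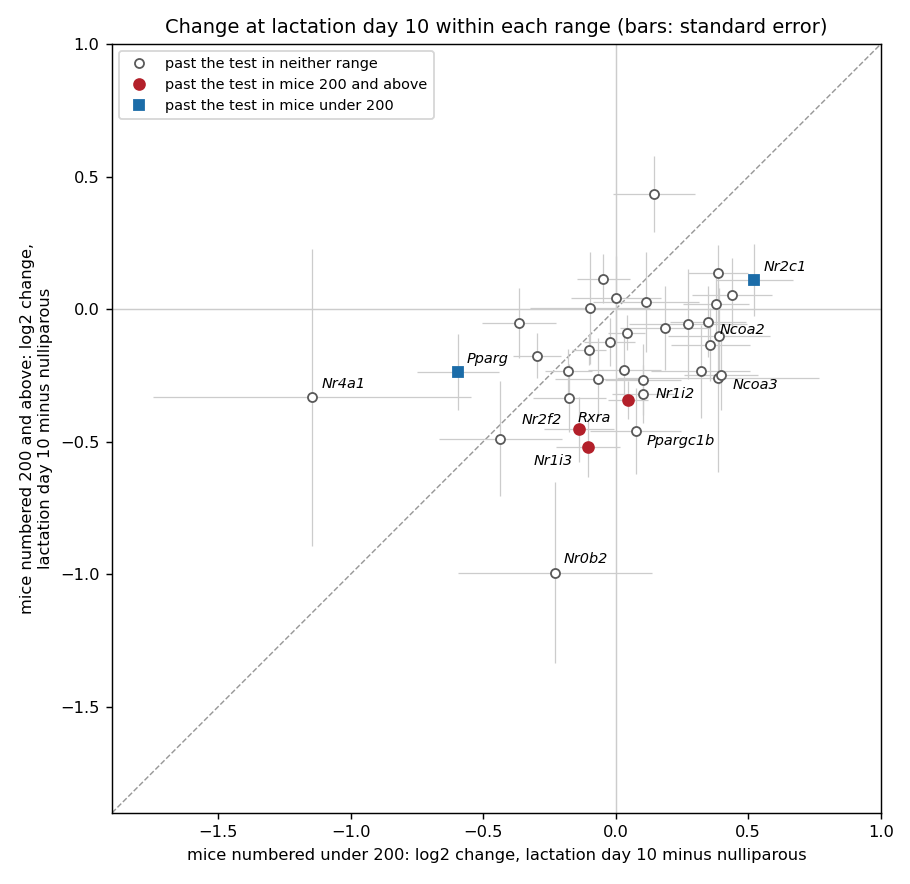
Log2 change of TPM + 1 from nulliparous to lactation day 10 in mice numbered under 200 (horizontal axis, 3 against 3 mice) and of 200 and above (vertical axis, 3 against 4 mice) for the 36 genes, with standard errors and the line of equal change. Red points passed the test in mice of 200 and above and blue squares in mice under 200. Of the 36 points, 14 have a negative change in mice of 200 and above and a positive change in mice under 200, and most of these changes did not pass the test.

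The lactation change was then compared between ranges for each gene. This used the 13 nulliparous and lactating mice and a mean for each range and stage. The log2 change, whether or not it passed the test, was negative in both ranges for 13 of the 36 genes and positive in both for 7, beside 36.8% and 24.0% of all genes. It was negative in mice of 200 and above and positive under 200 for 14, and the reverse for 2, beside 25.8% and 12.5% of all genes. In mice of 200 and above Rxra, Nr1i3 and Nr2f2 fell in this fit, or 3 genes, beside 7.06% of all genes, and none of the 3 passed in the fit of mice of 200 and above alone, as given above. In the same fit Pparg fell and Nr2c1 rose in mice under 200, the latter by 0.52 (SE 0.15, adjusted p = 0.046), or 2 genes, beside 9.04% of all genes. The difference itself passed for 0 of the 36 genes by limma, beside 0.111% of all genes, and 6 had an unadjusted p under 0.05, beside 13.3% of all genes. Besides Rxra and Nr1i3 these were Ncoa3 (difference -0.65, SE 0.19, unadjusted p = 0.0057, adjusted p = 0.22), Nr1i2 (-0.42, SE 0.16, unadjusted p = 0.023), Ncoa2 (-0.49, SE 0.20, unadjusted p = 0.032) and Ppargc1b (-0.54, SE 0.24, unadjusted p = 0.042).

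Receptors and coregulators outside these classes were tested in the same way. Of 17 other nuclear receptors, 9 were expressed enough for testing. At lactation 1 of the 9, Nr1h5, fell, by 0.45 (SE 0.10, adjusted p = 0.0056), beside 6.49% of all genes. In the fit of mice of 200 and above alone 0 rose and 2 fell, beside 2.61% and 4.47% of all genes: Nr1h5 by 0.63 (SE 0.12, adjusted p = 0.0096) and Esrrg by 0.38 (SE 0.09, adjusted p = 0.026). Between ranges 1 of the 9 was higher and 2 were lower, beside 16.5% and 9.11% of all genes, among them Esrrg at -0.57 (SE 0.08, adjusted p = 0.00042). Of 20 other coregulators, 1 fell at lactation (Ncoa7, -0.33, SE 0.09, adjusted p = 0.018), beside 6.49% of all genes, and it did not pass among mice of 200 and above (-0.39, adjusted p = 0.090). Of these coregulators 3 rose from lactation to involution, beside 18.1% of all genes, led by the corepressor subunit Gps2 at 0.51 (SE 0.08, adjusted p = 0.00013), which also rose among mice of 200 and above by 0.50 (SE 0.09, adjusted p = 0.0022). At involution 2 were higher than in nulliparous mice, beside 3.44% of all genes, and 0 were higher among mice of 200 and above. Between ranges 4 were higher and 1 was lower, beside 16.5% and 9.11% of all genes.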

How the data were processed

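The authors sequenced poly(A) RNA as paired-end reads, aligned it to GRCm38 and quantified genes with RSEM 1.3.1. They deposited TPM values with 2 decimals for 19 mice, which carry no sequencing depth, so only the spread between mice gives the precision here, and reads shared by near-identical genes may be split uncertainly. The authors tested counts, which were not used here. No 2 mice had identical values.

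Genes averaging at least 0.1 TPM (16230) were tested as log2(TPM + 1), a scale that understates changes of low genes, by limma-trend (limma 3.58.1, R 4.3.3) with 1 mean per stage and Benjamini-Hochberg adjustment over all of them. Ranges of animal number were compared in 13 nulliparous and lactating mice with stage as a covariate, and the lactation change by range as an interaction. Simulated data were used to check the test. Alternatives covered pseudocount, filter, scaling, robust moderation, range as a covariate, subsets of mice, the study's fold criterion and each mouse left out. The 38 genes and the lists of targets and markers were chosen with earlier results of these data known. All 38 are named, and of each list at most 3 genes per comparison, by size of change among those past the test. Some genes of these lists are not reported here.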

Additional observations from a re-analysis of the deposited data

Results flagged for a closer look

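In groups of 6 or 7 mice of a stage, 5 of 114 gene and stage groups held a mouse whose gap to its nearest neighbour was large for the group's range, where chance gives about 1 in 20 groups. Rxrg was 3.85 TPM in LAC_200, and the next lowest was 6.01 TPM. Rara was 7.24 TPM in LAC_240, above 5.58 TPM, and Esr1 was 8.12 TPM in LAC_102, above 5.10 TPM. Nr4a2 was 0.27 TPM in NUL_227, above 0.16 TPM, and Nr4a3 was 0.09 TPM in LAC_213, above 0.02 TPM, both near the lowest values the table records.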

How the results depend on the processing

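Of the 25 changes past the threshold, 9 passed under every alternative other than the study's criteria, and 0 reversed. At lactation day 10 the 2 changed genes became 1 without a filter on low values, 0 under median-ratio scaling, 1 under quantile normalization, 0 under the study's criteria, 0 among mice of 200 and above, 0 with only the 2 groups compared, and 0 to 3 with each mouse left out. Over all genes 441 rose and 1053 fell at lactation. Those counts were 743 and 735 under median-ratio scaling and 302 and 707 with only the 2 groups compared. From lactation to involution the 7 became 3 under median-ratio scaling, 1 under the study's criteria, 3 among mice of 200 and above (Nr0b2, Nr1h3 and Rarg) and 4 to 10 with each mouse left out, with 4 without ID6_209 or ID6_232. Over all genes 2936 rose and 767 fell in that comparison. Those counts were 2328 and 610 without ID6_209 and 2383 and 660 without ID6_232. At involution relative to nulliparous mice the 1 became 0 with pseudocounts of 0.5 and 0.1, 0 without a filter, 0 under the study's criteria, 0 with range as a covariate, 0 among mice of 200 and above, 0 with only the 2 groups, and 0 to 3 with each mouse left out, with 3 without NUL_220 or NUL_227. Over all genes 559 were higher and 148 were lower in that comparison. Those counts were 648 and 173 without NUL_220 and 1239 and 248 without NUL_227. Under median-ratio scaling and quantile normalization the count of the 36 genes stayed at 1, but Rarg was lost (0.29, adjusted p = 0.096 and 0.092) and Pparg passed as lower (adjusted p = 0.045 and 0.033). Between ranges the 15 became 2 under the study's criteria and 11 to 15 with each mouse left out. Over all genes 2670 were higher and 1479 were lower between ranges, and 121 and 194 under the study's criteria. The causes of these changes were not tested, beyond fewer mice or an added criterion. No paired analysis was possible because no animal number occurs in more than 1 group. TPM values keep no depth, so genes under about 1 TPM, such as Nr2f1 and Nr4a2, rest on an unknown number of reads.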
